A study of Ovis aries with 12 samples.

Results

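Transcripts of the TCA cycle, of the pyruvate dehydrogenase step that feeds it and of fatty acid oxidation were followed in the longissimus dorsi, a loin muscle along the spine, in 12 lambs. The list held 45 genes: 18 of the TCA cycle, 4 of the pyruvate dehydrogenase step and 23 of fatty acid uptake, oxidation and uncoupling. A gene was taken up when a probe set on the array carried its symbol and no other, and where a gene had several such probe sets the brightest over the 12 arrays stood for it. This found 41 of the 45 genes, among 9155 genes that the array annotation names in this way. The 4 genes without such a probe set were IDH3B, DLST, MDH1 and ETFDH. ACADL and UCP2 were too dim for the test, so 39 genes were tested: 15 of the TCA cycle, 4 of the pyruvate dehydrogenase step and 20 of fatty acid oxidation.

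The TCA cycle burns acetyl-CoA in the mitochondrial matrix and hands the electrons to the respiratory chain. Acetyl-CoA comes from pyruvate through the pyruvate dehydrogenase complex, or from fatty acids that are bound to coenzyme A, carried into mitochondria by the carnitine shuttle and shortened in repeated rounds of beta-oxidation. Slow, oxidative muscle fibres are rich in both pathways, and fast glycolytic fibres are poorer in them.

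The lambs (Ovis aries) were callipyge, with the genotype given as +/CLPG, or normal, with the genotype given as wild type (+/+). Callipyge is an inherited overgrowth of the muscles of the loin and hindquarters that sets in after birth. Lambs of each genotype were 10, 20 or 30 days old, with 2 biological replicates in each of the 6 groups. This gave 6 lambs per genotype and 4 per age. All had nursed until shortly before they were killed. Whole muscle RNA of each lamb was read on 1 Affymetrix bovine array, so sheep transcripts were measured by probes made for cattle.

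Arrays differed in brightness, with trimmed means from 55.7 to 105.7, and were brought to a common one. Values below are log2 of the scaled intensity plus 16, so that a difference of 1 is a doubling of that sum, and the change of a dim gene is understated. Replicate lambs correlated over probe sets at r = 0.956 to 0.969. As a check on RNA integrity, the 5' control probe set of GAPDH was subtracted from the 3' one on the log2 scale. The result was 0.53 in normal 20 day replicate 1 and 0.24 to 0.37 in the other lambs. The second replicates at 30 days had the lowest mean correlations with the other arrays (0.953 for the callipyge and 0.952 for the normal lamb). The next lowest, normal 10 day replicate 1, was close to them at 0.955. Some results that rest on the second replicates at 30 days are given without them too. Markers of skeletal muscle were bright in every lamb: the scaled intensities of the 6 on the array summed to 24140 to 28640 in callipyge and 23110 to 28490 in normal lambs. With 12 arrays, their number limits the precision. In whole muscle, fewer cells or fibres of a type and less RNA in each of them cannot be told apart.

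Callipyge muscle carried less mRNA for IDH2, the NADP-linked mitochondrial isocitrate dehydrogenase, and for ACAT1, the acetoacetyl-CoA thiolase that takes part in ketone body and isoleucine breakdown and in the last cleavage of beta-oxidation. IDH2 fell by 0.93 ± 0.13 (SE) on the log2 scale over the 3 ages, 1.90-fold, and ACAT1 fell by 0.55 ± 0.11, 1.46-fold. These were the 2 of 39 tested genes that differed between genotypes at an adjusted p of 0.05 or less, both lower in callipyge lambs (limma, Benjamini-Hochberg over 12008 probe sets). The ACAT1 call was close to the threshold (adjusted p = 0.0448, limma) and was lost under several of the settings given below. The IDH2 call was lost with ordinary least squares. Over all tested probe sets 0.883% were called in either direction with 0.316% called lower and 0.566% called higher. All 15 TCA cycle genes lay below 0, with a median of -0.19 and a range from -0.93 to -0.05, and 17 of 20 fatty acid oxidation genes lay below 0, with a median of -0.30 and a range from -1.12 to 0.56. The median over all tested probe sets was -0.01, and 52.5% of them lay below 0. At an unadjusted p under 0.05, 7 TCA cycle and 9 fatty acid oxidation genes were lower and 2 fatty acid oxidation genes were higher in callipyge lambs, where 5.95% of all tested probe sets were lower and 5.81% were higher. Without any scaling of the arrays the medians were -0.41 for the TCA cycle and -0.52 for fatty acid oxidation, and that of all tested probe sets moved to -0.19.

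**Figure D1:**
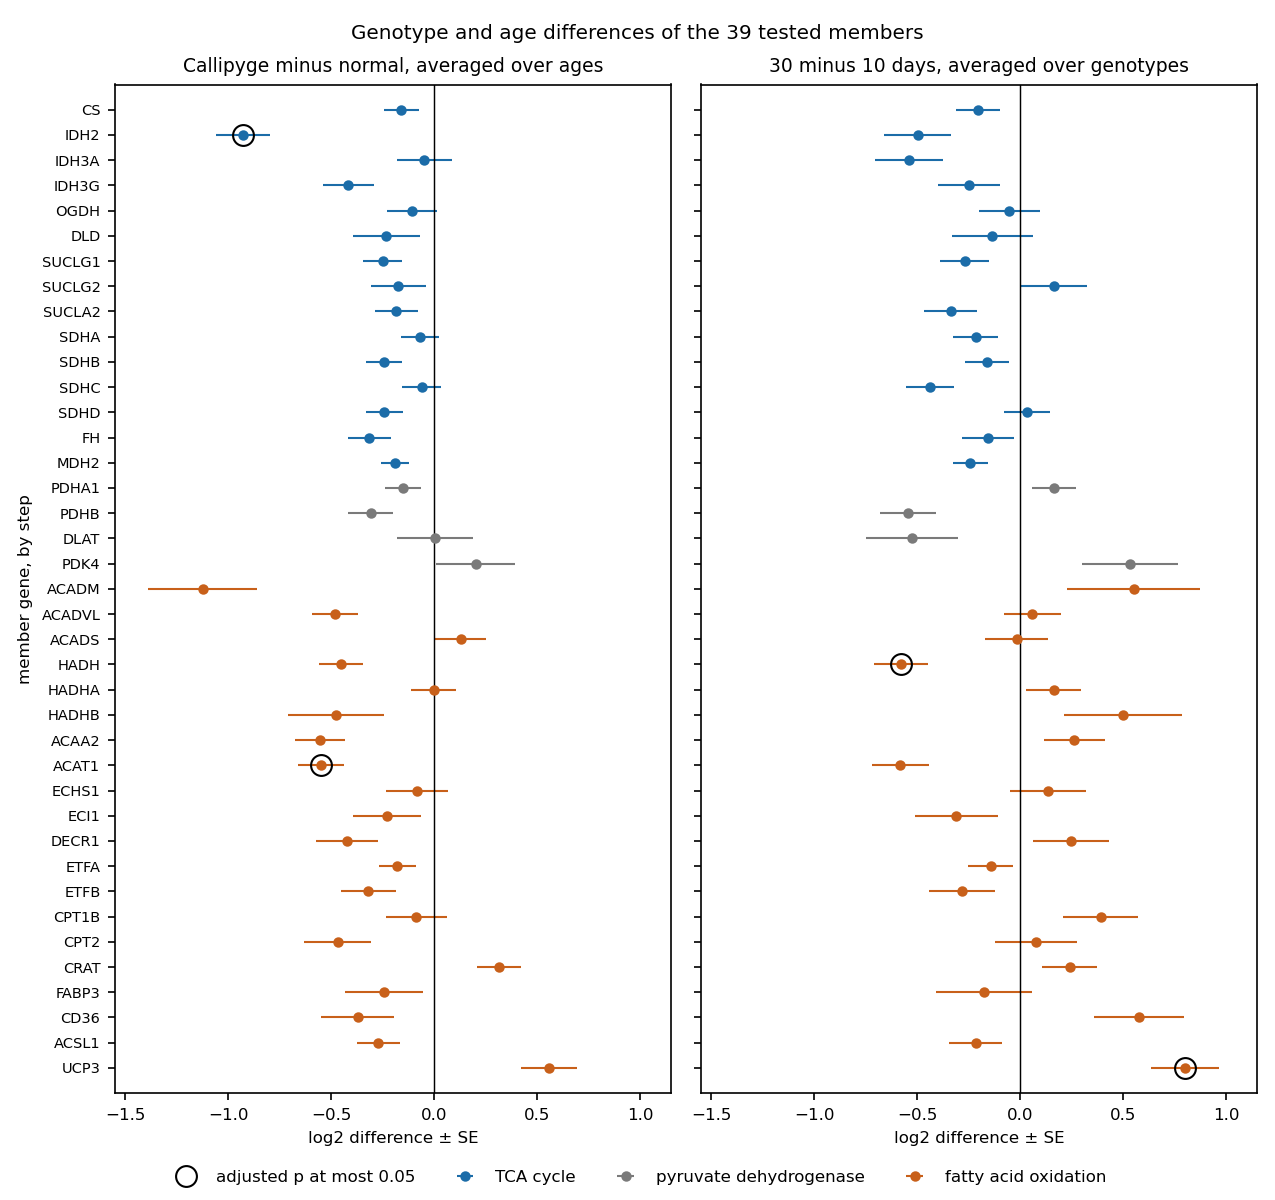
Log2 differences with standard errors of the 39 tested genes, on the left for callipyge minus normal averaged over ages (n = 6 against 6 lambs) and on the right for 30 minus 10 days averaged over genotypes (n = 4 against 4). Colours mark the TCA cycle, the pyruvate dehydrogenase step and fatty acid oxidation, and black rings mark genes with an adjusted p of at most 0.05: IDH2 and ACAT1 on the left, HADH and UCP3 on the right. On the left all 15 TCA cycle genes lie below 0; on the right the medians are -0.22 for the TCA cycle and 0.11 for fatty acid oxidation, and without scaling the former is 0.08.

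The cycle opens with citrate synthase and the isocitrate dehydrogenases, and here the difference between genotypes was uneven. In the callipyge lambs IDH2 read 10.36 and 10.90 at 10 days, 10.41 and 10.39 at 20 days, and 10.24 and 10.67 at 30 days. In the normal lambs it read 11.99 and 11.71, then 11.70 and 11.08, then 11.08 and 10.97. Every callipyge lamb lay below every normal lamb, with means of 10.49 ± 0.24 (SD, n = 6) and 11.42 ± 0.43 (SD, n = 6). Among the brightest probe sets of the 39 genes this held for IDH2 alone, and it held too for the second probe set of FH, while 0.35% of all tested probe sets had all 6 callipyge lambs below all 6 normal lambs. No gene of the list had all 6 callipyge lambs above, against 0.683% of tested probe sets. Averaged over ages the adjusted p was 0.00582 (limma), and with ordinary least squares, which does not share variance between probe sets, it was 0.147 and the call was lost. The difference was -1.23 at 10 days, -0.99 at 20 days and -0.57 at 30 days, and none of the 3 passed by itself (adjusted p = 0.0754, 0.335 and 0.625). The normal lambs were highest at 10 days, while the callipyge lambs lay between 10.24 and 10.90 at every age. The interaction of genotype and age did not pass (unadjusted p = 0.161, adjusted p = 0.992). Without both second replicates at 30 days the genotype difference was -1.02 (adjusted p = 0.0193).

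IDH3G encodes a regulatory subunit of the NAD-linked isocitrate dehydrogenase, the enzyme that drives the cycle forward. It read 9.46 and 9.51, 9.38 and 9.69, and 9.59 and 9.18 in callipyge lambs at 10, 20 and 30 days, against 9.88 and 10.17, 9.79 and 10.21, and 9.46 and 9.79 in normal lambs. At 10 and 20 days both callipyge lambs lay below both normal lambs, and at 30 days the groups overlapped. Its genotype difference of -0.42 ± 0.12 did not pass (adjusted p = 0.174, limma). The catalytic subunit IDH3A showed next to no difference, at -0.05, and neither did its other probe set, at 0.10 (adjusted p = 0.934 and 0.872). Citrate synthase, CS, which joins acetyl-CoA to oxaloacetate, stood at -0.16 (adjusted p = 0.50).

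Further round the cycle the genotype differences were small and one-sided. OGDH and DLD, the first and the last enzyme of the 2-oxoglutarate dehydrogenase complex, differed by -0.11 and -0.23. The 3 subunits of succinyl-CoA ligase differed by -0.25 (SUCLG1), -0.17 (SUCLG2) and -0.18 (SUCLA2). The 4 subunits of succinate dehydrogenase, which is also complex II of the respiratory chain, differed by -0.07 (SDHA), -0.24 (SDHB), -0.06 (SDHC) and -0.24 (SDHD). None of these passed, with a smallest adjusted p of 0.274. For SUCLG1 and SDHB each of the 6 callipyge lambs read lower than both normal lambs of its age, as it did for IDH2, ACADM and HADH. These were 5 of the 39 genes, where 1.47% of all tested probe sets had this order.

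FH, the fumarase that turns fumarate into malate, read 10.62 and 10.76, 10.72 and 10.92, and 10.92 and 10.37 in callipyge lambs at 10, 20 and 30 days. Normal lambs read 11.04 and 11.19, 11.05 and 11.24, and 10.85 and 10.84. In this probe set the genotypes stood apart at 10 and 20 days and crossed at 30 days, where the second callipyge replicate was far below the other 3 lambs of that age. The difference over ages was -0.32 ± 0.10 (adjusted p = 0.232, limma) and -0.23 without both second replicates at 30 days (adjusted p = 0.423). In the other, dimmer probe set of FH the genotypes did not cross: the callipyge lambs read 8.24 to 8.78 and the normal lambs 8.92 to 9.24, and at 30 days 8.77 and 8.24 stood against 8.96 and 8.92. Its difference over ages was -0.44 (adjusted p = 0.0996). MDH2, the mitochondrial malate dehydrogenase that closes the cycle, differed by -0.19 (adjusted p = 0.274).

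At the pyruvate dehydrogenase step the picture depended on the probe set. In the brightest probe sets the median difference was -0.07, and 2 of the 4 genes lay below 0: PDHA1, the catalytic alpha subunit, at -0.15, and PDHB, the beta subunit, at -0.31. DLAT, the acetyltransferase core, stood at 0.00, and PDK4, the kinase that switches the complex off when fat is burned, at 0.20. The other tested probe sets of DLAT and PDK4 lay below 0, at -0.21 and -0.18 for DLAT and -0.17 and -0.41 for PDK4. Those of PDHA1 did not lie below 0, at 0.07 and 0.00. No gene of the 4 passed (smallest adjusted p = 0.277, limma).

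**Figure D2:**
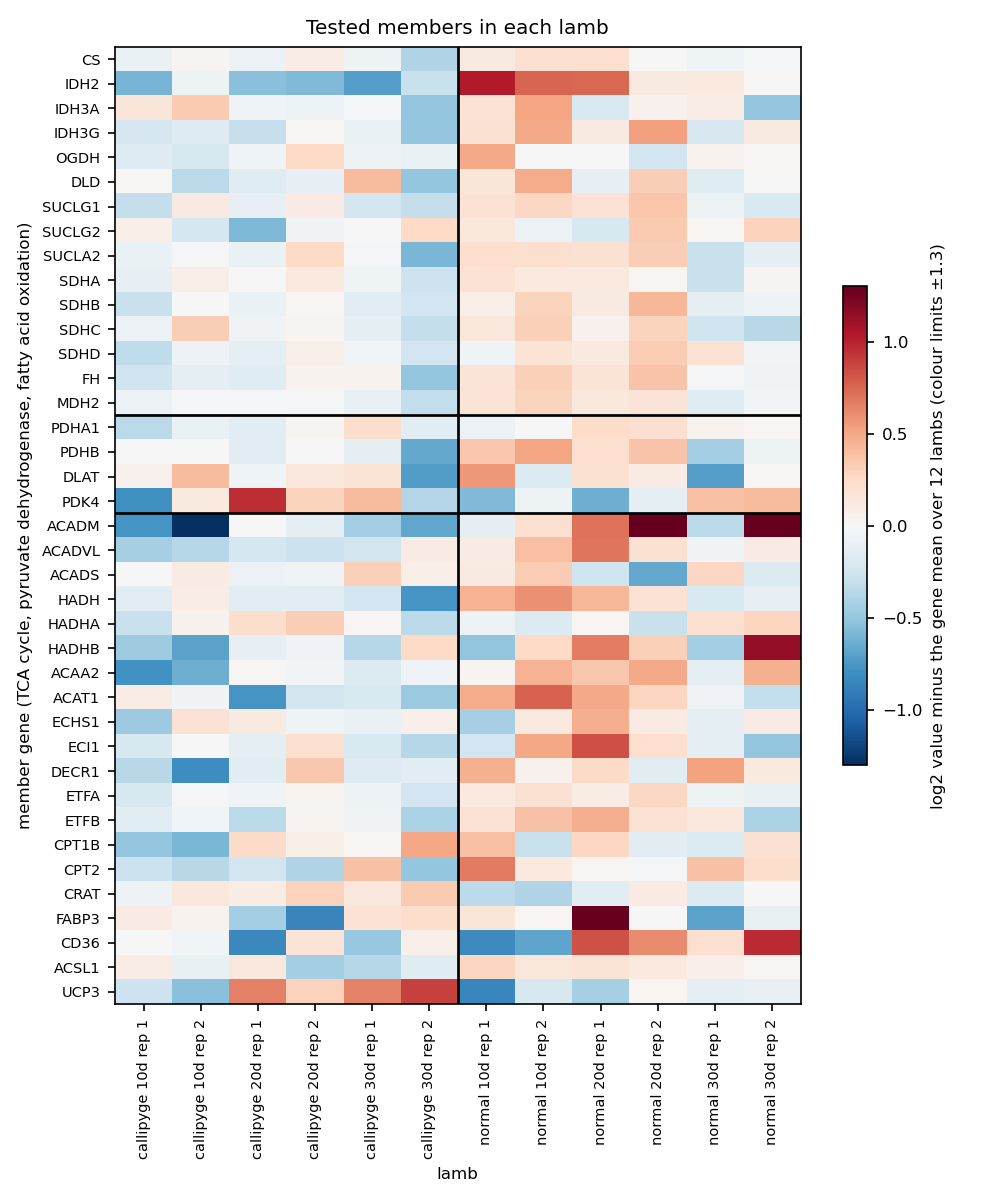
Tested members (rows: TCA cycle, pyruvate dehydrogenase and fatty acid oxidation, parted by lines) in each lamb (columns, callipyge left of the line and normal right of it, by age and replicate), as the log2 value minus the mean of that gene over the 12 lambs. Blue is below and red above the mean. IDH2 is blue in the 6 callipyge lambs, where it reads 10.24 to 10.90, and ACADM runs from 7.75 in a 10 day callipyge lamb to 10.74 in a 30 day normal lamb.

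In fatty acid oxidation the genotype differences scattered more widely from gene to gene, with an SD over the 20 genes of 0.36 against 0.21 over the 15 TCA cycle genes and 0.22 over all tested probe sets. Fatty acids enter the cell through carriers such as CD36, are bound in the cytosol by FABP3, the heart and muscle fatty acid binding protein, and are activated by ligases such as ACSL1. Averaged over ages these 3 genes differed by -0.37, -0.24 and -0.27 (smallest adjusted p = 0.314, limma). Of the carnitine shuttle, CPT1B, the muscle form of the outer membrane transferase, stood at -0.09 and CPT2, its inner membrane partner, at -0.47 (adjusted p = 0.882 and 0.263). CRAT, which moves acetyl groups between coenzyme A and carnitine, leaned the other way, at 0.31 (adjusted p = 0.258), and was above 0 at each of the 3 ages.

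The acyl-CoA dehydrogenases take the first step of each round of beta-oxidation and differ in the chain length they accept. ACADVL, for very long chains, read 9.61 and 9.67, 9.82 and 9.76, and 9.81 and 10.16 in callipyge lambs at 10, 20 and 30 days. In normal lambs it read 10.15 and 10.44, 10.74 and 10.24, and 10.00 and 10.15. The genotypes were apart at 10 and 20 days, by -0.65 and -0.70, and overlapped at 30 days, with a difference of -0.09. Its difference over ages, -0.48 ± 0.11, did not pass (adjusted p = 0.0747, limma).

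ACADM, the medium-chain enzyme, had the most negative difference of the 39 genes, and is described for that reason, after its values were seen. Callipyge lambs read 8.35 and 7.75, 9.12 and 9.0, and 8.67 and 8.45 at 10, 20 and 30 days, and normal lambs 9.0 and 9.32, 9.83 and 10.43, and 8.77 and 10.74. Each callipyge lamb lay below both normal lambs of its age, but the normal lambs at 30 days were themselves far apart. The difference of -1.12 ± 0.26, 2.18-fold, did not pass (adjusted p = 0.0747, limma), and it was -1.11, -1.07 and -1.20 at the 3 ages. ACADS, the short-chain enzyme, stood at 0.13 (adjusted p = 0.754). ACADL, the long-chain enzyme, was below the brightness limit with a mean of 5.07.

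The later steps of the spiral hydrate, oxidise and cleave the shortened chain. ACAA2, the mitochondrial 3-ketoacyl-CoA thiolase, read 8.81 and 8.96, 9.61 and 9.56, and 9.42 and 9.55 in callipyge lambs at 10, 20 and 30 days. In normal lambs it read 9.63 and 10.04, 9.94 and 10.09, and 9.47 and 10.05. The groups were apart at 10 and 20 days and overlapped at 30 days, with differences of -0.96, -0.44 and -0.27. Averaged over ages the difference was -0.56 ± 0.12 and did not pass (adjusted p = 0.0538, limma).

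ACAT1 read 10.93 and 10.79 at 10 days, 10.07 and 10.60 at 20 days, and 10.64 and 10.35 at 30 days in callipyge lambs. In normal lambs it read 11.32 and 11.60, then 11.33 and 11.12, then 10.79 and 10.52. At 10 and 20 days both callipyge lambs were below both normal lambs, and at 30 days 1 callipyge lamb, at 10.64, lay above a normal lamb at 10.52. The means were 10.56 ± 0.31 (SD, n = 6) and 11.11 ± 0.39 (SD, n = 6), and the difference averaged over ages passed (adjusted p = 0.0448, limma). It was -0.60, -0.89 and -0.16 at the 3 ages. The call was lost when any of 9 of the 12 lambs was left out, all but callipyge 20 day replicate 2, callipyge 30 day replicate 1 and normal 30 day replicate 2 (adjusted p up to 0.133, without normal 20 day replicate 1), and without both second replicates at 30 days (-0.55, adjusted p = 0.0955). It was also lost with ordinary least squares (adjusted p = 0.230), without a filter on dim probe sets (0.109) and with median centring (0.0784) or quantile normalization (0.0575).

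HADH, the 3-hydroxyacyl-CoA dehydrogenase for medium and short chains, differed by -0.45 ± 0.11 between genotypes (adjusted p = 0.0794, limma), with each callipyge lamb below both normal lambs of its age. The mitochondrial trifunctional protein, which works on long chains, is built of HADHA and HADHB, and the transcripts of the subunits stood apart: HADHA at -0.00 and HADHB at -0.48 (adjusted p = 0.998 and 0.451). ECHS1, the short-chain hydratase, stood at -0.08. DECR1 and ECI1, which deal with double bonds of unsaturated fatty acids, differed by -0.43 and -0.23, and ETFA and ETFB, the subunits of the flavoprotein that carries off the electrons, by -0.18 and -0.32 (smallest adjusted p of these 5 = 0.272).

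UCP3, a mitochondrial carrier of skeletal muscle that is linked to fatty acid handling, ran against the list. Averaged over ages it differed by 0.56 ± 0.14 (adjusted p = 0.0914, limma). UCP2 lay near the floor of the scale, with a mean of 4.30, and was not tested.

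**Figure D3:**
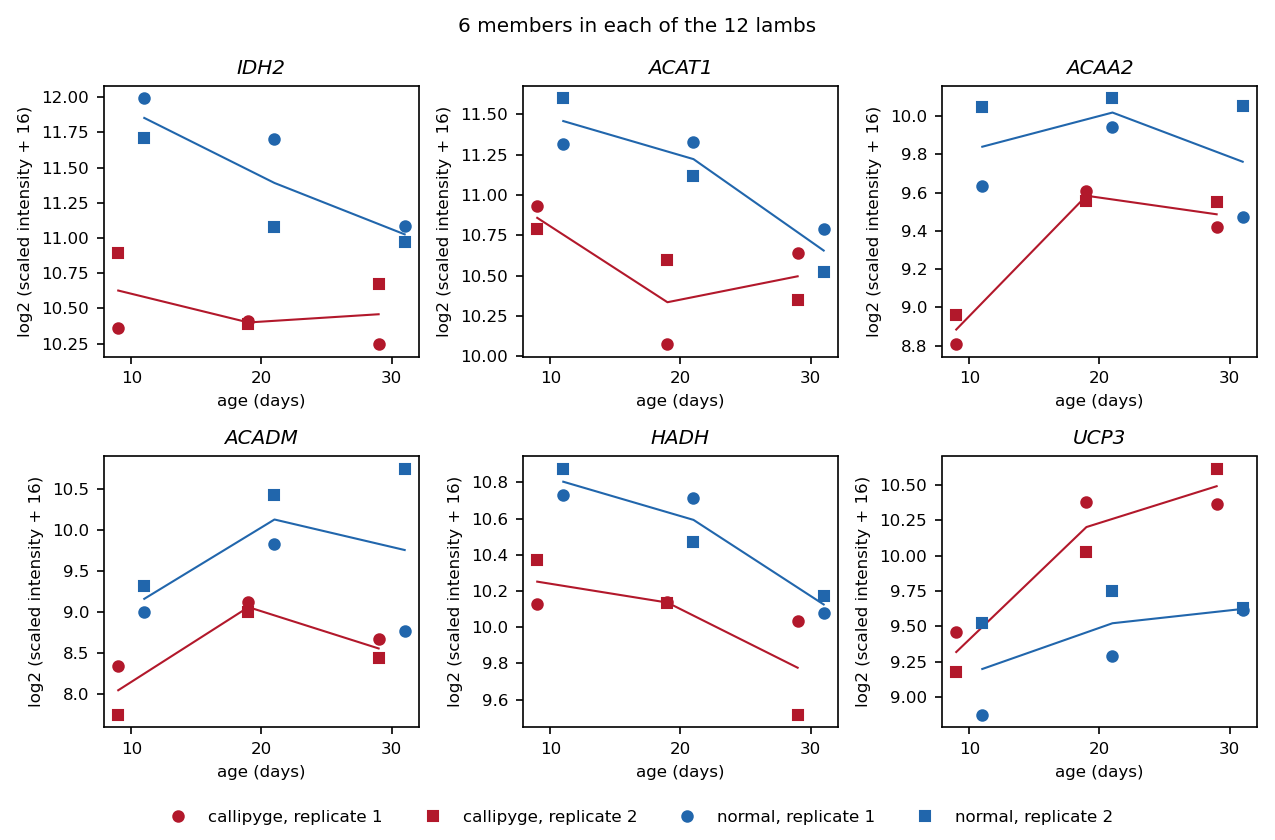
Log2 of scaled intensity plus 16 (y axis) at 10, 20 and 30 days (x axis) of IDH2, ACAT1, ACAA2, ACADM, HADH and UCP3 in each lamb. Callipyge is red and normal blue, circles are first and squares second replicates, and lines join the means of 2 lambs. The 6 callipyge lambs lie below the 6 normal lambs for IDH2, from 10.24 to 10.90 against 10.97 to 11.99, and UCP3 at 30 days reads 10.37 and 10.62 in callipyge against 9.61 and 9.63 in normal lambs.

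Taken age by age, no gene of the list passed between genotypes, where 0.0666% of all tested probe sets were called at 10 days, 0.0333% at 20 days and 0.05% at 30 days. The median differences were -0.29, -0.24 and -0.11 at 10, 20 and 30 days for the TCA cycle and -0.33, -0.38 and -0.13 for fatty acid oxidation. Those of all tested probe sets were -0.01, 0.01 and -0.02. At the 3 ages 15, 13 and 13 of the 15 TCA cycle genes and 15, 14 and 13 of the 20 fatty acid oxidation genes lay below 0, beside 51.4%, 48.6% and 53% of all tested probe sets. Of the 15 TCA cycle genes 11 (73.3%) were below 0 at each of the 3 ages, and of the 20 fatty acid oxidation genes 10 (50%) were, beside 17.3% of all tested probe sets. CRAT and UCP3 were above 0 at each age. At an unadjusted p under 0.05, 5, 2 and 1 TCA cycle genes were lower at the 3 ages and none higher. Of the fatty acid oxidation genes 8, 6 and 3 were lower and 1 was higher at each age. Of all tested probe sets 4.48%, 3.11% and 3.97% were lower and 4.34%, 3.04% and 3.63% higher at that p. Leaving out a lamb leaves 1 lamb in its group, so calls at a single age from such fits are not given. The 2 normal lambs were far apart for FABP3 at 20 days, at 11.98 and 10.65, and for ACADM at 30 days, at 8.77 and 10.74.

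The interaction of genotype and age was called for none of the 39 genes and for 0% of all tested probe sets (limma). At an unadjusted p under 0.05 it held 4 of the 39 genes, FABP3, CD36, PDK4 and HADHA, beside 4.75% of all tested probe sets. These 4 are described because of that p, after their values were seen, and their age patterns are given as values. None is a TCA cycle gene.

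CD36 read 9.88 and 9.84 in callipyge lambs against 9.05 and 9.20 in normal lambs at 10 days. At 20 days the readings were 9.04 and 10.05 against 10.70 and 10.49, and at 30 days 9.38 and 9.95 against 10.10 and 10.84. The callipyge pair was above the normal pair at 10 days and below it at the later ages, with differences of 0.74, -1.05 and -0.80 (interaction unadjusted p = 0.00263, adjusted p = 0.952, limma).

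FABP3 read 10.75 and 10.69 against 10.80 and 10.67 at 10 days, 10.20 and 9.78 against 11.98 and 10.65 at 20 days, and 10.83 and 10.87 against 9.94 and 10.55 at 30 days, callipyge before normal. Both callipyge lambs were below both normal lambs at 20 days and above both at 30 days, with differences of -0.02, -1.32 and 0.60 (interaction unadjusted p = 0.00355, adjusted p = 0.952, limma). The reading of 11.98, in normal 20 day replicate 1, was 1 lamb, and its array had the highest 3' minus 5' difference of GAPDH.

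PDK4 read 11.03 and 11.95 in callipyge lambs against 11.25 and 11.76 in normal lambs at 10 days, 12.78 and 12.11 against 11.19 and 11.70 at 20 days, and 12.24 and 11.44 against 12.21 and 12.23 at 30 days. The callipyge pair stood above the normal pair at 20 days, by 1.00, while the differences at 10 and 30 days were -0.02 and -0.38. The other probe sets of PDK4 gave 0.62 and 0.39 at 20 days, and -0.80 and -1.17 at 30 days. HADHA differed by 0.01, 0.40 and -0.41 at the 3 ages (interaction unadjusted p = 0.0286 for PDK4 and 0.0307 for HADHA, adjusted p = 0.992 for both, limma).

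**Figure D4:**
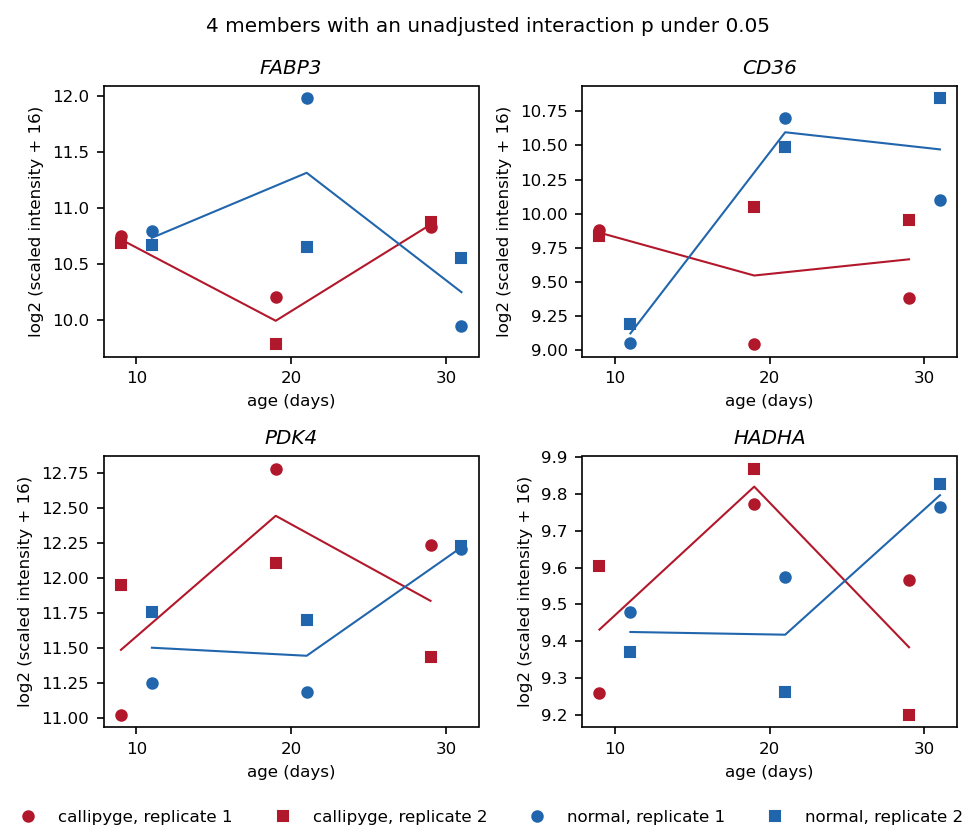
Log2 of scaled intensity plus 16 (y axis) by age in days (x axis) of FABP3, CD36, PDK4 and HADHA in each lamb, callipyge in red and normal in blue, with circles for first and squares for second replicates and lines through the means of 2 lambs. CD36 in callipyge minus normal goes from 0.74 at 10 days to -1.05 at 20 days and -0.80 at 30 days, and PDK4 is 1.00 apart at 20 days. No interaction passed after adjustment.

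Between 10 and 30 days HADH fell by 0.58 ± 0.13 on the log2 scale and UCP3 rose by 0.80 ± 0.17, 1.74-fold, averaged over genotypes. These 2 of the 39 genes passed (adjusted p = 0.0463 and 0.0324, limma), 1 in each direction, beside 1.83% of all tested probe sets, of which 1.26% were lower and 0.575% higher. For the 15 TCA cycle genes the median was -0.22 and 13 lay below 0, but without any scaling of the arrays the median was 0.08, where that of all tested probe sets moved from 0.00 to 0.24. For the 20 fatty acid oxidation genes the median was 0.11 and 8 lay below 0 (median 0.38 without scaling). Of all tested probe sets 49.6% lay below 0. At an unadjusted p under 0.05, 6 TCA cycle genes were lower and none higher, and 2 fatty acid oxidation genes were lower and 2 higher, where 8.74% of all tested probe sets were lower and 7.62% higher.

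HADH read 10.13 and 10.37 in callipyge and 10.73 and 10.87 in normal lambs at 10 days. At 20 days it read 10.14 and 10.13 against 10.71 and 10.47, and at 30 days 10.04 and 9.52 against 10.08 and 10.17. The 30 day lambs were lower within each genotype, and the ages overlapped only through a normal lamb at 30 days, at 10.17, and a callipyge lamb at 10 days, at 10.13. The call was lost in 11 of 12 fits with 1 lamb left out, all but that without callipyge 30 day replicate 1 (adjusted p up to 0.168, without callipyge 10 day replicate 2). It was lost without both second replicates at 30 days (-0.47, adjusted p = 0.154), and without scaling the difference was -0.28 (adjusted p = 0.452). Ordinary least squares (adjusted p = 0.145), median centring (0.150), quantile normalization (0.0894) and no filter (0.0895) ended the call too.

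UCP3 read 9.46 and 9.18 in callipyge and 8.87 and 9.52 in normal lambs at 10 days, 10.38 and 10.03 against 9.29 and 9.75 at 20 days, and 10.37 and 10.62 against 9.61 and 9.63 at 30 days. All 4 lambs of 30 days lay above all 4 lambs of 10 days, as in 3.53% of all tested probe sets. The genotypes overlapped at 10 days, and at 20 and 30 days both callipyge lambs were above both normal lambs. The age call was lost without callipyge 10 day replicate 1 or 2, callipyge 30 day replicate 2, normal 10 day replicate 1 or either normal 30 day replicate (adjusted p up to 0.124), and without both second replicates at 30 days (0.73, adjusted p = 0.161). It was lost with ordinary least squares (adjusted p = 0.154) and without a filter on dim probe sets (0.0672) as well.

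Among the TCA cycle genes SDHC, a membrane anchor of complex II, read 11.05, 11.45, 11.28 and 11.44 at 10 days and 11.01, 10.82, 10.86 and 10.77 at 30 days, callipyge lambs first. Its difference between these ages was -0.44 ± 0.12 (adjusted p = 0.0799, limma). IDH3A read 9.43, 9.61, 9.46 and 9.79 at 10 days against 9.26, 8.76, 9.37 and 8.76 at 30 days, a difference of -0.54 ± 0.16 (adjusted p = 0.123). For both genes all 30 day lambs lay below all 10 day lambs, as in 4.31% of all tested probe sets. Without both second replicates at 30 days the IDH3A difference was -0.26 (adjusted p = 0.484), and the other IDH3A probe set gave -0.26 (adjusted p = 0.556).

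PDHB was the third gene in which the 30 day lambs lay below all 10 day lambs, with 10.76, 10.76, 11.12 and 11.27 at 10 days and 10.64, 10.09, 10.30 and 10.69 at 30 days, callipyge lambs first. Its difference was -0.54 ± 0.14 (adjusted p = 0.0641, limma), and it ran from -0.68 to -0.41 when lambs were left out 1 at a time. The lowest reading, 10.09, was callipyge 30 day replicate 2. DLAT stood at -0.53, while PDHA1 stood at 0.16, with -0.11 and -0.09 in its other tested probe sets. The kinase PDK4 stood at 0.53, with 0.82 and 0.69 in its other probe sets (smallest adjusted p over these 3 genes = 0.148, limma). ACAT1 stood at -0.58 ± 0.14 (adjusted p = 0.0524).

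The remaining TCA cycle genes ran from -0.50 (IDH2, adjusted p = 0.146) to 0.16 (SUCLG2). SUCLA2 stood at -0.34, SUCLG1 at -0.27, IDH3G at -0.25, MDH2 at -0.24, SDHA at -0.22 and CS at -0.21, while SDHD stood at 0.03. Of the fatty acid genes, CD36 stood at 0.58, ACADM at 0.55, HADHB at 0.50 and CPT1B at 0.39, and ECI1 at -0.31 and ETFB at -0.28, none of which passed (smallest adjusted p = 0.211). No gene of the list passed for 20 against 10 days, where 0% of all tested probe sets did, for 30 against 20 days, where 0.00833% did, or over all 3 ages together, where 0.849% did (limma; smallest adjusted p over all 3 ages 0.0700, for UCP3). At an unadjusted p under 0.05, 3 genes were lower and 4 higher at 20 than at 10 days, 8 were lower and 1 higher at 30 than at 20 days, and 15 differed over all 3 ages. The shares of all tested probe sets were 4.61% lower and 3.81% higher at 20 than at 10 days, 4.87% lower and 4.12% higher at 30 than at 20 days, and 13.6% over all 3 ages. From 10 to 20 days the median was -0.0095 for the TCA cycle, with 9 of 15 genes below 0, and 0.22 for fatty acid oxidation, with 7 of 20 below 0, beside 53.4% of all tested probe sets. From 20 to 30 days it was -0.22 with 14 of 15 and -0.11 with 15 of 20 below 0, beside 46% of all tested probe sets. These medians were taken on the scaled values alone.

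The fatty acid genes stood higher against the TCA cycle genes at 30 than at 10 days, and at about the same place in both genotypes, when their means were set side by side in each lamb. Each gene was centred on its mean over the 12 lambs, and the mean of the 15 TCA cycle genes was taken from that of the 20 fatty acid genes. In callipyge lambs the result was -0.10 and -0.23 at 10 days, 0.06 and -0.06 at 20 days, and 0.01 and 0.24 at 30 days. In normal lambs it was -0.23 and -0.15, then 0.25 and -0.07, then 0.03 and 0.23. The 4 lambs of 10 days, from -0.23 to -0.10, did not overlap the 4 of 30 days, from 0.01 to 0.24. Scaling shifts the genes of an array nearly alike and so almost cancels in this quantity. Its values without scaling are therefore no separate check. The means were -0.18 ± 0.06 at 10 days, 0.05 ± 0.15 at 20 days and 0.13 ± 0.13 at 30 days (SD, n = 4). The shift from 10 to 30 days was 0.30, and it ran from 0.25 to 0.36 when lambs were left out 1 at a time. Its size rests in large part on both second replicates at 30 days, at 0.24 and 0.23. The first replicates of that age, at 0.01 and 0.03, were not above the 20 day mean. Between genotypes the same quantity differed by -0.02, with -0.01 ± 0.16 in callipyge and 0.01 ± 0.20 in normal lambs (SD, n = 6). The genes were chosen with results of these lambs known, so this is a description without a test.

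**Figure D5:**
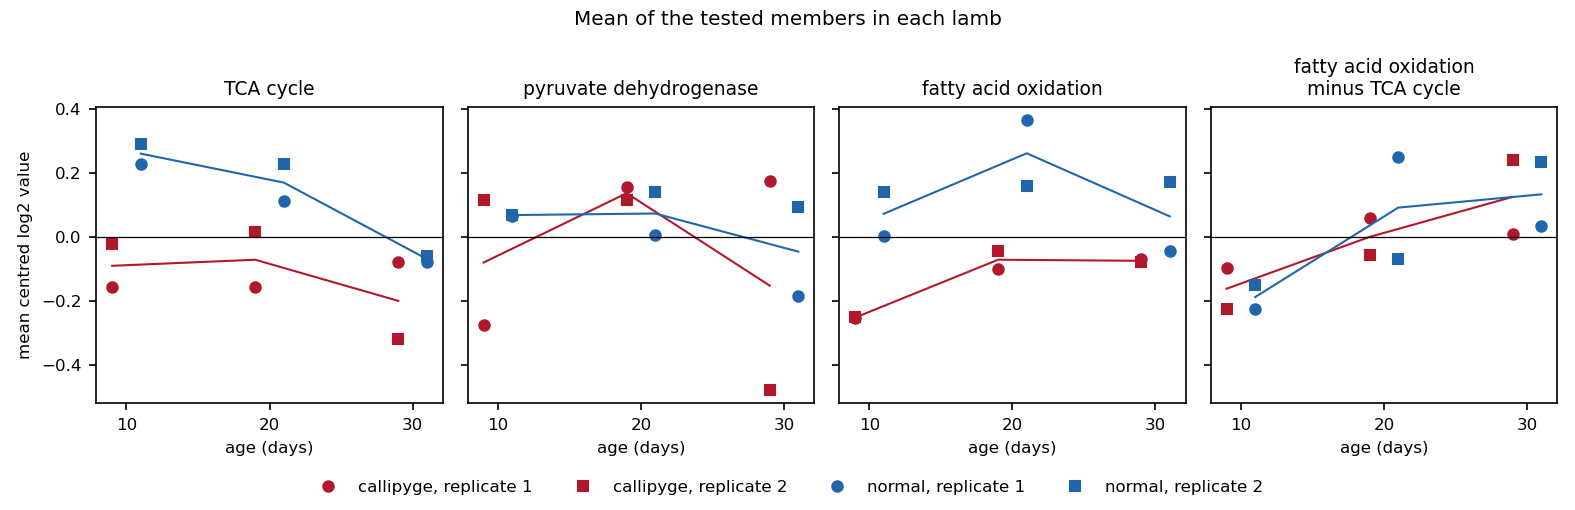
Mean over the tested genes of each group (y axis, log2 value of each gene minus its mean over 12 lambs) by age in days (x axis) for the TCA cycle, the pyruvate dehydrogenase step and fatty acid oxidation, and the fatty acid mean minus the TCA cycle mean in the last panel. Points are lambs, callipyge in red and normal in blue, with circles for first and squares for second replicates, and lines join the means of 2 lambs. In the last panel the 10 day lambs lie between -0.23 and -0.10 and the 30 day lambs between 0.01 and 0.24, in both genotypes.

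Few other genes of these pathways were called. Of 21 further tested genes of the cycle and of pyruvate use, IDH1, the cytosolic NADP-linked isocitrate dehydrogenase, fell by 0.50 ± 0.11 (adjusted p = 0.0492, limma). It was the sole one called between genotypes, beside 0.883% of all tested probe sets. At an unadjusted p under 0.05, 3 of the 21 (14.3%) were lower and 2 higher, beside 5.95% and 5.81% of all tested probe sets. The median of the 21 was 0.07, and the next smallest p belonged to ME1, the cytosolic malic enzyme, at 0.65 (adjusted p = 0.282). From 10 to 30 days none of the 21 passed. At an unadjusted p under 0.05, 3 (14.3%) were lower, beside 8.74% of all tested probe sets. With a median of -0.17, 17 (81%) lay below 0, beside 49.6% of all tested probe sets. ACLY, the citrate lyase of fat synthesis, and MPC1, of the mitochondrial pyruvate carrier, stood at -0.52 and -0.44 (adjusted p = 0.163 and 0.180, limma).

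Of 34 further tested genes of fatty acid handling none passed between genotypes, and the median was -0.03. At an unadjusted p under 0.05, 6 of the 34 (17.6%) were lower, beside 5.95% of all tested probe sets. GCDH, the glutaryl-CoA dehydrogenase, and ACOT13, an acyl-CoA thioesterase, had the smallest p, at -0.48 and -0.40 (adjusted p = 0.187 and 0.190, limma). From 10 to 30 days the median of the 34 was -0.07 and none passed. At an unadjusted p under 0.05, 4 (11.8%) were lower and 2 higher, beside 8.74% and 7.62% of all tested probe sets. FABP5, a further fatty acid binding protein, stood at 0.92 and HSD17B10, a mitochondrial dehydrogenase, at -0.46 (adjusted p = 0.0575 and 0.108, limma). Of 8 tested regulators of these genes none passed in either comparison. At an unadjusted p under 0.05 there was 1 in each direction for genotype and 1 higher for age. The shares of all tested probe sets were 5.95% lower and 5.81% higher for genotype and 7.62% higher for age. For genotype PRKAA1, a catalytic subunit of AMP-activated kinase, stood at 0.44 and ANGPTL4, an inhibitor of lipoprotein lipase, at -0.79 (adjusted p = 0.189 and 0.413), and for age ANGPTL4 stood at 1.14 and PPARD, a nuclear receptor for fatty acids, at 0.28 (adjusted p = 0.211 and 0.327).

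Markers of slow fibres lay lower in callipyge lambs on average, but not in each lamb. Their centred mean was 0.02 in callipyge 30 day replicate 1 and -0.08 in normal 30 day replicate 1. All 10 tested slow fibre genes lay below 0 in callipyge minus normal, with a median of -0.22, and LDHB, a lactate dehydrogenase subunit of oxidative muscle, fell by 0.89 ± 0.16 (adjusted p = 0.02, limma). The summed scaled intensity of the slow fibre genes was 30260 to 39350 in callipyge and 34710 to 48790 in normal lambs. By age, the median differences of these genes were -0.13, -0.57 and -0.21 at 10, 20 and 30 days. At 10, 20 and 30 days 8, 9 and 7 of the 10 lay below 0, beside 51.4%, 48.6% and 53% of all tested probe sets. Of the 10 genes 5 (50%) were below 0 at all 3 ages jointly, beside 17.3% of all tested probe sets. All 7 fast fibre genes lay above 0, with a median of 0.09 and none called. Of 8 tested endothelial genes 7 lay below 0, with a median of -0.17 and sums of 1279 to 2301 in callipyge and 1442 to 2501 in normal lambs. The 3 tested erythroid genes lay below 0, with sums of 149.1 to 244.5 against 198 to 315.9. Of 7 fibroblast genes 4 lay below 0, with a median of -0.17, while the medians of the smooth muscle (5 genes), immune (4 genes) and nerve (2 genes) markers were 0.01, 0.05 and 0.03. Adipocyte markers were dim, 5 of the 9 on the array being below the brightness limit. Of the 4 tested 3 lay above 0, with a median of 0.24, and the 9 summed to 360.8 to 579.4 in callipyge and 327.3 to 453.9 in normal lambs. The part of fibre type and of other cells in the differences above was not tested.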

How the data were processed

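The deposited file holds 1 linear intensity for each probe set and lamb, computed by the authors using MAS5 in GCOS, per the submitters' processing notes; versions and scaling target are not given in the sources used here. Arrays were multiplied to a trimmed mean of 79.2 (2% left out at each end), the average over the 12, and log2 of the scaled intensity plus 16 was taken. After 112 control probe sets were left out, the 12008 of 24016 with a mean of at least the median, 5.25, were tested. limma 3.58.1 in R 4.3.3 fitted a mean for each of 6 groups, with moderated variances that follow brightness (6 residual and 6.93 prior degrees of freedom) and Benjamini-Hochberg adjustment over all tested probe sets. The fit was tested on simulated data. Symbols are those of the platform annotation, which can be old. Figures were drawn with matplotlib 3.10.9.

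Genes given lamb by lamb passed in a comparison or had 1 of the 3 smallest p of their list for genotype or for 30 against 10 days; TCA cycle and pyruvate dehydrogenase genes counted as 1 list for this. Of the other lists, those that passed and the 2 with the smallest p were named. The members and lists were chosen with earlier results of these data known. List medians and counts carry no test. Replicates are separate lambs. Whether replicate numbers pair lambs was checked over 15 pairs of groups: same-numbered lambs correlated at -0.0592 to 0.113 in their deviations, so no pairing was used. Alternatives were other pseudocounts, filters, scalings, variance models, probe sets and thresholds, a replicate block and arrays left out.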

Additional observations from a re-analysis of the deposited data

Results flagged for a closer look

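In 5 of 70 sets of lambs examined (all lambs of an age or of a genotype, for a named gene or a list mean), 1 lamb lay far from the others by Dixon's criterion, where chance gives about 1 in 20, or 3.5. Callipyge 30 day replicate 2 was low in 3 of them: FH at 10.37 among 30 day lambs (the others 10.84 to 10.92), PDHB at 10.09 among callipyge lambs (10.63 to 10.76), and the TCA cycle mean at -0.32 among 30 day lambs (-0.08 to -0.06). The pyruvate dehydrogenase mean of callipyge 10 day replicate 1 was low at -0.27 (the other 10 day lambs 0.07 to 0.11). The fatty acid oxidation mean of normal 30 day replicate 2 was high at 0.17 (the other 30 day lambs -0.08 to -0.04).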

How the results depend on the processing

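No direction of a called difference reversed under the alternatives run. The counts of genes that follow are given without the matching share of all tested probe sets under each setting. A change in a count can therefore not be read as particular to this list. For genotype averaged over ages (2 genes called) the count was 1 without a filter on dim probe sets (IDH2), 4 without scaling (ACAA2, ACADM, ACAT1 and IDH2), 0 with ordinary least squares, where IDH2 had an adjusted p of 0.147, 7 at a threshold of 0.10 and 1 without both second replicates at 30 days; leaving out each array gave 1 to 3. IDH2 was called in all 12 of these fits, from -1.03 to -0.82. For 30 against 10 days (2 called) the count was 5 with the filter at the 75th percentile and at a threshold of 0.10, 1 (UCP3) with quantile normalization, median centring or array weights, and 0 without a filter, with ordinary least squares or without both second replicates; leaving out each array gave 0 to 4. Over all 3 ages (0 called) it was 1 with the 75th percentile filter, without scaling and at 0.10, and 0 to 1 with an array left out. At 10 days it was 1 at 0.10 (IDH2). Counts at a single age with an array left out are not given, because 1 lamb then stands for a group. Genes with all callipyge below all normal lambs (1) numbered 2 without scaling, 3 with quantile normalization, 2 with all or the dimmest probe sets, 3 without both second replicates and 1 to 3 with an array left out. Without scaling the medians for genotype were -0.41 (TCA cycle) and -0.52 (fatty acid oxidation), and for 30 against 10 days 0.084 (TCA cycle), 0.12 (pyruvate dehydrogenase) and 0.38 (fatty acid oxidation); with median centring they were -0.078 (TCA cycle) and 0.22 (fatty acid oxidation), all tested probe sets standing at 0.08. With a replicate block 2 genes were called for genotype, IDH2 and ACAA2, with ACAT1 at an adjusted p of 0.0530, and 1 (UCP3) for 30 against 10 days, with HADH at 0.0507. With 2 lambs a group, differences at a single age and interactions had the widest errors.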
